A study of Rattus norvegicus with 6 samples.

Results

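Hexokinase 2 and 8 further genes of glycolysis, fructolysis and the entry of pyruvate into mitochondria were examined in rat ileum, 9 of the 14506 genes tested. The members were taken by gene symbol: Hk1, Hk2, Pfkl, Pfkm, Pfkp, Khk, Pklr, Ldha and Pdk1, each from a row of the deposited table whose probe annotation gives only that symbol. All 9 had such a row, and Ldha had 2, of which the row with the higher mean over all 6 arrays was used. The tissue came from 6 rats of the Zucker fa/fa genotype, which are obese because their leptin receptor is defective, aged 20 weeks at surgery and killed 14 days later. In 3 rats a duodenum-jejunum bypass (DJB) led food from the start of the duodenum into the jejunum beyond the bypassed stretch, while bile and pancreatic juice joined it further down. The other 3 rats had a sham operation in which the cut bowel was rejoined so that food kept its normal course. All 6 rats carried the same fa/fa genotype, no lean rat is among them, and each array holds the RNA of 1 rat. Whole ileum was used, so muscle, nerve and immune cells of the gut wall are part of every sample.

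Glycolysis breaks glucose down to pyruvate. Hexokinases trap glucose in the cell by adding a phosphate, phosphofructokinase sets the pace of the pathway, and pyruvate kinase closes it. Pyruvate then becomes lactate through lactate dehydrogenase or enters mitochondria, where pyruvate dehydrogenase kinases restrain its oxidation. Fructose takes a separate route: ketohexokinase phosphorylates it, and its carbon joins glycolysis below the phosphofructokinase step. The small intestine is known as a main site of this fructose route.

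Levels are given on the log2 scale of the RMA-normalised arrays. Array medians lay between 6.08 and 6.11, except that of DJB 1, at 6.19. Differences are DJB minus sham with the standard error (SE) of limma's moderated fit, and a gene is said to have risen or fallen where p, adjusted over the whole table of genes, was under 0.05. With 3 arrays a group, precision is limited by their number. Ileal identity was seen in Fabp6, the ileal bile acid binding protein, which averaged 13.88 after DJB and 13.57 in sham, and all 8 markers of enterocytes and epithelium lay above the array median in both groups. All 7 smooth muscle markers also lay above it. In RNA of whole tissue, fewer cells of a type and less RNA per cell cannot be told apart.

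After the bypass, Hk2 rose 1.79-fold, the only member to pass the test. Pklr, Khk and Pdk1 were lower on every DJB array than on any sham array, by 1.42-fold, 1.29-fold and 1.22-fold, without passing. The phosphofructokinase subunit genes, Ldha and Hk1 overlapped between the groups. In all, 1 of the 9 members passed, where 0.772% of all genes tested did (0.393% higher and 0.379% lower). The groups did not overlap in 4 of 9 members, 1 higher and 3 lower, against 21.1% of all genes (14.5% higher and 6.56% lower). At an unadjusted p under 0.05 stood 4 members, the same 4, where 14.3% of all genes did. The median difference of the members was -0.12, beside 0.05 over all genes tested. The members and the lists below were chosen with earlier results of these data known. Such counts beside the shares of all genes are therefore no test of a set.

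**Figure D1:**
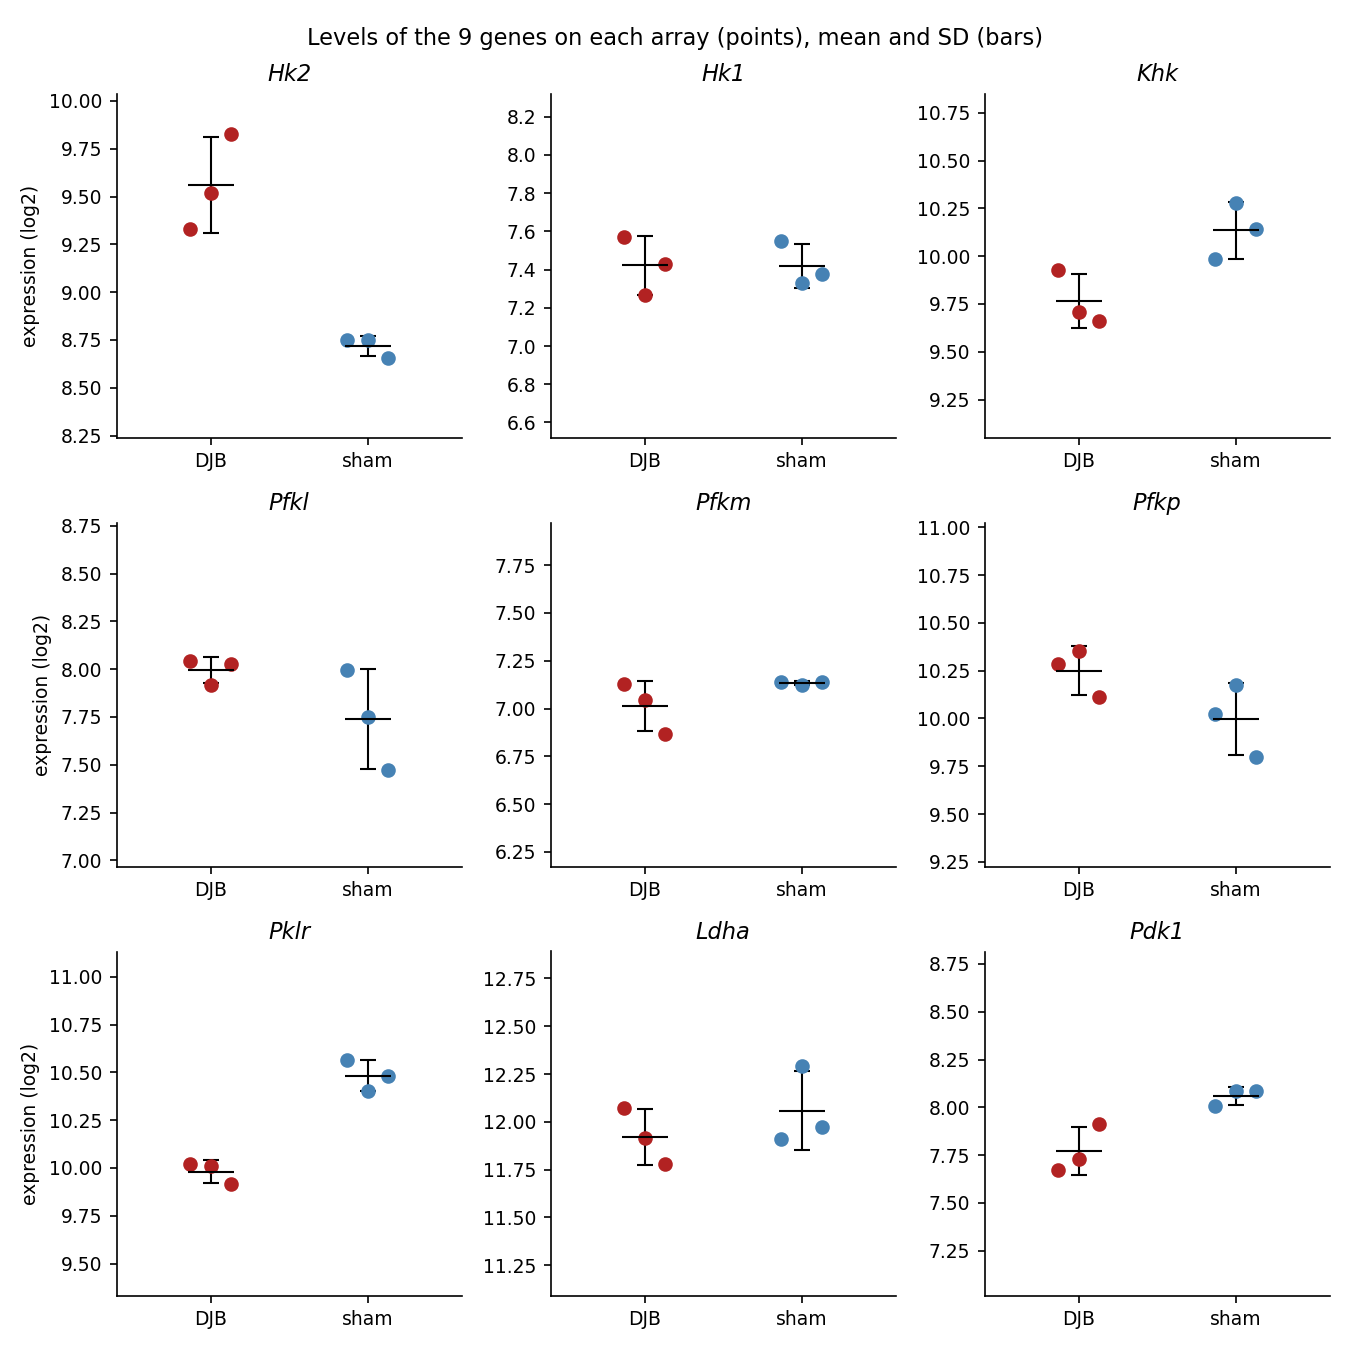
Expression levels (log2, vertical axes, each panel spanning the same range) of the 9 genes on the 3 DJB arrays (left, red) and the 3 sham arrays (right, blue), with the mean and SD of each group as bars. Hk2 lies wholly higher after DJB, Khk, Pklr and Pdk1 lie wholly lower, and the groups overlap in the other 5 panels.

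The hexokinase genes gave different results. Hk2 encodes the high-affinity hexokinase best known as the insulin-responsive form of muscle and fat. Its levels were 9.33, 9.52 and 9.83 after DJB, against 8.75, 8.75 and 8.66 in sham. The DJB arrays were all above the sham arrays, and they were also more spread, with an SD of 0.25 against 0.05. The difference was 0.84 ± 0.13 (SE, n = 3 per group; 95% interval 0.55 to 1.14; adjusted p = 0.0266). By p, Hk2 stood at place 62 of the genes tested, and by size at place 46 among all rises. Its call ended without DJB 2 (adjusted p = 0.103), without sham 1 (0.0837), without sham 2 (0.0951) and without sham 3 (0.124), and when every row of the table was tested (0.0603), while the difference stayed between 0.71 and 0.96 whichever array was left out.

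Hk1 encodes the hexokinase that most tissues express throughout. Its levels were 7.57, 7.27 and 7.43 after DJB and 7.55, 7.33 and 7.38 in sham, so that the groups lay over each other. The difference of 0.0034 ± 0.11 had a 95% interval from -0.25 to 0.26, which takes in small shifts either way, and its sign turned under other scalings. The log2 ratio of Hk2 to Hk1 was 1.76, 2.26 and 2.40 on the DJB arrays, against 1.20, 1.42 and 1.28 on the sham arrays. Thus the ratio was higher on every DJB array, by 0.84, and the exact two-sided permutation test gave p = 0.1, the smallest that 3 against 3 arrays allow (adjusted p = 0.2 over the 6 isozyme ratios compared). Ratios within an array show unequal change between the genes, and their absolute size depends on the probes. Hk3, a hexokinase gene known from white blood cells, differed by 0.18 ± 0.20.

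Markers of other cell types were set beside Hk2. The mean level of 4 cell division genes ran from 8.69 to 8.99 after DJB and from 8.38 to 8.53 in sham, and that of 5 macrophage genes from 7.63 to 7.92 after DJB and from 7.39 to 7.49 in sham. The 3 ileal enterocyte genes averaged 11.69 to 12.06 after DJB and 10.61 to 10.99 in sham. The 8 markers of enterocytes and epithelium averaged 11.77 to 11.96 after DJB and 11.71 to 12.07 in sham, with overlap. Overlap was also seen for 5 T cell genes (8.48 to 9.27 after DJB, 8.32 to 8.76 in sham). So it was for 3 B cell genes (4.94 to 6.86, 5.90 to 7.05) and 4 adipocyte genes (5.55 to 5.89, 5.52 to 6.04). Limma called 1 of the 4 division genes higher (Ccnb1, a cyclin) and 2 of the 3 ileal genes higher (Slc10a2, the bile acid transporter, and Nr1h4, the bile acid receptor), where 0.393% of all genes were called higher. Slc10a2 differed by 1.73, Nr1h4 by 0.98 and Fabp6 by 0.30. Limma called 0 of the 5 macrophage genes, of which 4 had an unadjusted p under 0.05, against 14.3% of all genes. It called 0 of the 7 smooth muscle genes, of which 0 had such a p. Of the 5 T cell genes it called 0, and 1 had such a p (Gzmb, 1.21 ± 0.43, adjusted p = 0.256). All 5 T cell genes had higher means after DJB, as had 61.7% of all genes tested. Neither these lists nor the smooth muscle list, at 9.83 to 10.11 after DJB and 9.55 to 10.07 in sham, were tested for their part in the Hk2 result.

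The stretches around the transcription start are shown for Hk2, the member that rose, for Pklr, the member with the most negative difference, and for Ldha, a textbook target of the hypoxia factor HIF whose levels overlapped. Each holds 250 bases before and 50 after the start, from RefSeq on build GRCr8, 5′ to 3′ along the gene. Capitals mark matches, on either strand, to the carbohydrate response element consensus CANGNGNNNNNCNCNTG, which the glucose-sensing factor ChREBP binds, to ACGTG, the core of hypoxia response elements, and to the cyclic AMP response element TGACGTCA. Hk2 lies at chr4:116841226-116841525 on the minus strand, Pklr at chr2:176841014-176841313 on the plus strand and Ldha at chr1:106507842-106508141 on the plus strand.
Hk2: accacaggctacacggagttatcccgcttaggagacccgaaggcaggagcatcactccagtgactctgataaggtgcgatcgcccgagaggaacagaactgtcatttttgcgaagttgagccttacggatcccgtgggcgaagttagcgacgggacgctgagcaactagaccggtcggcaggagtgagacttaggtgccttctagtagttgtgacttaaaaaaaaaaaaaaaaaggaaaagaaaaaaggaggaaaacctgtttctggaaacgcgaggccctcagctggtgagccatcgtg
Pklr: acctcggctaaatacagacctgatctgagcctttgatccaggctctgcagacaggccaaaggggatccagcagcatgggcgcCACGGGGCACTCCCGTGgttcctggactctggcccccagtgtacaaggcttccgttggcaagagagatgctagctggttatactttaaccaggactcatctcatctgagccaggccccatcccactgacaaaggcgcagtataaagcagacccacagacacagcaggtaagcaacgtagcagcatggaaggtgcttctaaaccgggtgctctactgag
Ldha: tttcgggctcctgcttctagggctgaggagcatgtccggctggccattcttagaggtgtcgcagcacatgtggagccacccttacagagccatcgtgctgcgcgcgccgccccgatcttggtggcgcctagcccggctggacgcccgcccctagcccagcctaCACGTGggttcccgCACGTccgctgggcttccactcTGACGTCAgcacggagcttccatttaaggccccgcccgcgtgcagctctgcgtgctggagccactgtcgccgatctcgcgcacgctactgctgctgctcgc

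The Pklr stretch held the carbohydrate response element consensus, as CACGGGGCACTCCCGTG from base -168 to base -152 counted from the start, and a TATAAA box from -29 to -24. That consensus occurred in 0.562% of the 33469 stretches of the same length and in 1 of the 10 that belong to the members (Hk1 has 2). Ldha held ACGTG at 3 places, 2 of them the strands of the palindrome CACGTG at -87 to -82, and TGACGTCA at -51 to -44. ACGTG occurred in 19.3% of all stretches and in 4 of the members' 10, those of Ldha, Pdk1, Pfkm and Hk1. TGACGTCA occurred in 1.83%, CACGTG in 6.42% and TATAAA in 14.2% of all stretches. None of these letters were found in the Hk2 window. The GC box GGGCGG, searched as well, was in 6 of the members' 10 stretches and in 33.1% of all.

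Khk encodes ketohexokinase, which starts fructose breakdown. Its levels were 9.93, 9.71 and 9.66 after DJB, against 9.98, 10.28 and 10.14 in sham. Every DJB array was below every sham array, though DJB 1 and sham 1 lay close together. The difference was -0.37 ± 0.12 (95% interval -0.63 to -0.11) and missed the threshold (adjusted p = 0.203).

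Around Khk, the fructose list held 4 measured genes, with 1 fall and 0 rises past the test and a median difference of -0.24, where 0.379% of all genes were called lower and 0.393% higher. Tkfc, triokinase, which phosphorylates the glyceraldehyde left after fructose is split, had levels of 10.27, 10.15 and 10.00 after DJB and 10.74, 10.80 and 10.79 in sham. All DJB arrays lay below all sham arrays. Tkfc fell by 0.64 ± 0.10, which is 1.55-fold (adjusted p = 0.0282). Its call ended without DJB 2 (adjusted p = 0.105), DJB 3 (0.0735), sham 1 (0.0931), sham 2 (0.111) or sham 3 (0.124), and when every row was tested (0.0632).

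Slc2a5, the fructose transporter of the brush border, had levels of 10.22, 10.30 and 10.84 after DJB and 11.04, 11.13 and 11.15 in sham. DJB 3 stood nearer to the sham arrays than the other DJB arrays did. The difference was -0.65 ± 0.16 and did not pass (adjusted p = 0.124). With an array left out, it passed in 1 of 6 fits, that without DJB 3 (-0.84, adjusted p = 0.0187). In the other fits with an array left out it did not pass (adjusted p up to 0.318). Among the 8 alternatives that kept all 6 arrays, Slc2a5 passed in 1, that with an intensity trend (adjusted p = 0.0438). The polyol route genes Sord and Akr1b1, which make fructose from glucose, differed by 0.20 ± 0.14 and 0.15 ± 0.12 with overlapping groups.

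The phosphofructokinase subunit genes are named for liver (Pfkl), muscle (Pfkm) and platelet (Pfkp). Pfkl had levels of 8.04, 7.92 and 8.03 after DJB and 8.00, 7.75 and 7.47 in sham. Pfkp had levels of 10.29, 10.35 and 10.11 after DJB and 10.02, 10.18 and 9.80 in sham. Both overlapped between the groups, with differences of 0.26 ± 0.13 (95% interval -0.05 to 0.56; adjusted p = 0.430) and 0.25 ± 0.12 (-0.02 to 0.53; adjusted p = 0.396). The Pfkl difference was 0.12 without sham 3 and 0.38 without sham 1, and that of Pfkp was 0.15 without sham 3.

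Pfkm had levels of 7.13, 7.05 and 6.87 after DJB and 7.14, 7.12 and 7.14 in sham. The difference of -0.12 ± 0.10 (95% interval -0.35 to 0.11) did not pass (adjusted p = 0.631), and was -0.0468 without DJB 3. The log2 ratio of Pfkm to Pfkl was -0.91, -0.87 and -1.16 after DJB, against -0.86, -0.63 and -0.33 in sham. All DJB ratios were below all sham ratios, by 0.38 on average, though DJB 2 and sham 1 lay close together. The exact permutation test gave 0.1, the smallest p that it allows (adjusted p = 0.2). The difference in this ratio was -0.24 without sham 3 and -0.50 without sham 1. The ratio of Pfkp to Pfkl overlapped and differed by -0.0046 (exact permutation p = 1). Among 11 regulators of glycolysis measured, limma called 0 (0.772% of all genes), and 1 had an unadjusted p under 0.05 (14.3% of all genes). That gene was Pfkfb3, which makes an activator of phosphofructokinase and had -0.36 ± 0.11 (adjusted p = 0.194), with levels of 6.60, 6.32 and 6.29 after DJB and 6.80, 6.76 and 6.72 in sham.

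**Figure D2:**
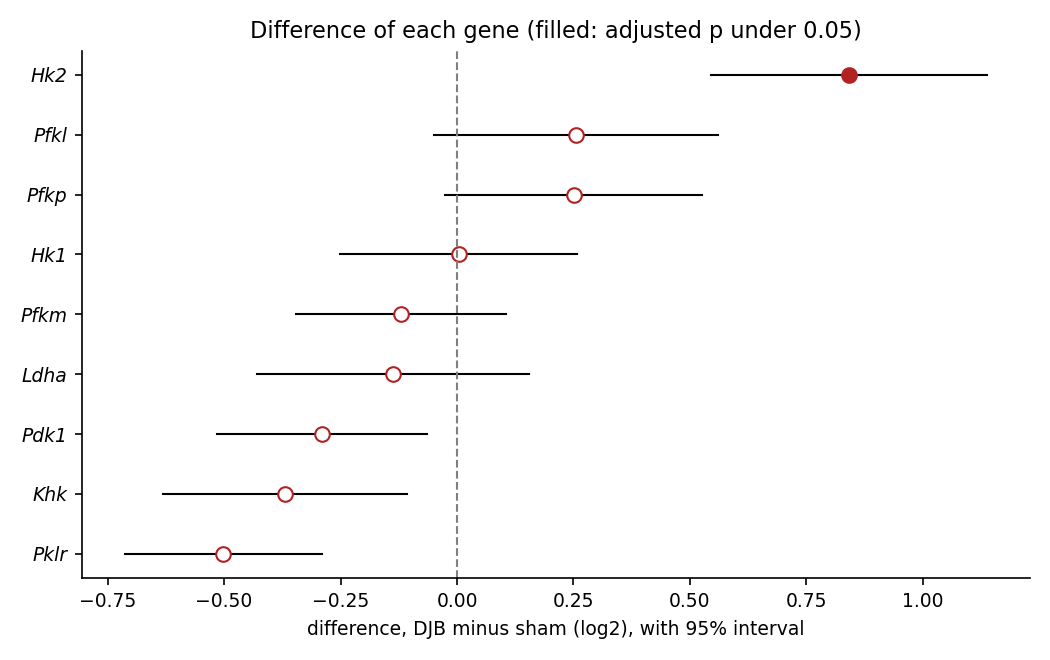
Difference DJB minus sham of each gene (horizontal axis, log2) with its 95% interval from limma, ordered by size; a filled point marks adjusted p under 0.05. Hk2 is the only filled point, at 0.84, the intervals of Pdk1, Khk and Pklr lie below 0, and the other 5 cross 0.

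Pklr encodes the pyruvate kinase of liver and red cells, which the small intestine also expresses. Its levels were 10.02, 10.01 and 9.91 after DJB, against 10.56, 10.40 and 10.48 in sham. The arrays of each group lay close together, with SDs of 0.06 after DJB and 0.08 in sham, and the groups stood clear of each other. The difference of -0.50 ± 0.09 (95% interval -0.71 to -0.29) just missed the threshold (adjusted p = 0.0530). It passed when quantile normalisation was repeated (adjusted p = 0.0320), with arrays centred on their median (0.0364), without dim rows (0.0194) and with an intensity trend (0.00898), and it did not pass without any 1 of the 6 arrays (0.0920 to 0.195).

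Pkm, the pyruvate kinase gene of most other tissues, differed by -0.12 ± 0.11. The log2 ratio of Pklr to Pkm was -1.24, -1.06 and -1.25 after DJB and -0.81, -0.96 and -0.65 in sham, lower on all DJB arrays by 0.38 (exact permutation p = 0.1, adjusted p = 0.2). Mlxipl, which encodes ChREBP, had -0.20 ± 0.10 and overlapping groups, and Txnip, another gene that ChREBP is known to induce, had 0.12 ± 0.09. Neither passed (adjusted p = 0.413 and 0.603).

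Since Pklr is also a red cell gene, markers of those cells were set beside it. Hbb, a haemoglobin chain, had 8.70, 7.80 and 7.67 after DJB and 9.30, 8.65 and 9.21 in sham. The groups overlapped, and the difference between means of 8.06 after DJB and 9.05 in sham did not pass (SE 0.27; limma adjusted p = 0.152). Of the 4 measured red cell markers limma called 0 (0.772% of all genes), and 2 had an unadjusted p under 0.05 (14.3% of all genes). Alas2 (-0.23) and Epb42 (-0.22) were lower on average and Slc4a1 (0.17) was higher. The 4 measured red cell markers averaged 5.65 to 6.06 after DJB and 6.05 to 6.20 in sham, and only Hbb lay above the array median in both groups. Their part in the Pklr result was not tested.

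Ldha encodes the lactate dehydrogenase subunit that favours lactate. Its levels were 12.07, 11.92 and 11.78 after DJB and 11.91, 12.29 and 11.97 in sham, with overlap. The difference was -0.14 ± 0.13 (95% interval -0.43 to 0.16; adjusted p = 0.684), and was -0.0193 without sham 2, -0.0651 without DJB 3 and -0.21 without DJB 1 or sham 1. The second Ldha row, at 6.57, 6.69 and 6.33 after DJB and 6.34, 6.69 and 6.33 in sham, gave 0.07 ± 0.14, the opposite sign and no call (adjusted p = 0.873 over all rows). The ratio of Ldha to Ldhb, the subunit of more oxidative tissues, differed by -0.20 with overlap (exact permutation p = 0.2, adjusted p = 0.3), and by -0.0471 without sham 2 and -0.31 without sham 1.

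No other glycolysis enzyme gene passed. Of 14 measured, limma called 0, 0 had an unadjusted p under 0.05, 8 were higher and 6 lower, and differences ran from -0.12 to 0.18 around a median of 0.01. Among all genes, 0.772% were called, 14.3% had an unadjusted p under 0.05 and 61.7% were higher. The groups did not overlap in 1 of the 14 genes, against 21.1% of all genes tested (14.5% higher, 6.56% lower). That gene was Gapdh, at 13.25, 13.21 and 13.34 after DJB and 13.11, 13.19 and 13.07 in sham. Its difference was 0.14 ± 0.09 (adjusted p = 0.530). Aldoa, an aldolase, differed by 0.16 ± 0.09 (adjusted p = 0.486).

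Genes known to be induced by hypoxia, a condition in which Hk2, Ldha and Pdk1 are also classic targets, gave 0 limma calls among 11 measured (7 higher, 4 lower, median 0.07), with 1 at an unadjusted p under 0.05. Over all genes tested, 0.772% were called, 14.3% had an unadjusted p under 0.05, 61.7% were higher and the median was 0.05. Of the 11, P4ha1, a collagen-modifying enzyme, had 0.40 ± 0.15, Slc2a1, the glucose transporter of most cells, 0.18 ± 0.09, and Egln1, an oxygen sensor, -0.20 ± 0.11. All of them missed the threshold (adjusted p = 0.273 for P4ha1, 0.428 for Slc2a1 and 0.447 for Egln1).

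**Figure D3:**
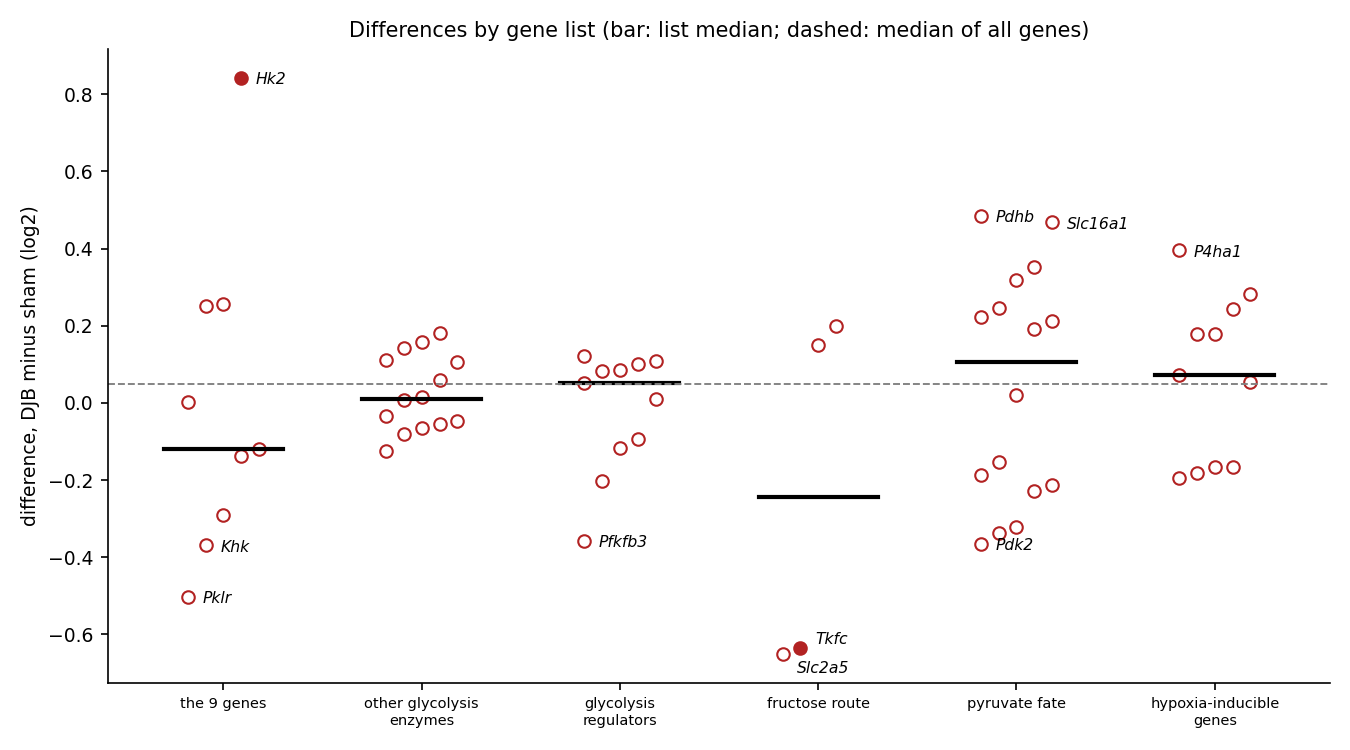
Difference DJB minus sham (vertical axis, log2) of every measured gene in 6 lists; filled points passed at adjusted p under 0.05, black bars are list medians, and the dashed line is the median of all genes tested, 0.05. Hk2 (0.84) and Tkfc (-0.64) are the filled points, and the other glycolysis enzymes lie within -0.12 and 0.18.

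Pdk1 encodes a kinase that switches pyruvate dehydrogenase off. Its levels were 7.67, 7.73 and 7.91 after DJB, against 8.01, 8.09 and 8.09 in sham. All DJB arrays lay below the sham arrays, DJB 3 by the least. The difference of -0.29 ± 0.10 (95% interval -0.51 to -0.06) did not pass (adjusted p = 0.241). The other kinase genes had differences of -0.37 ± 0.15 for Pdk2, -0.21 ± 0.11 for Pdk3 and -0.15 ± 0.33 for Pdk4, each with overlapping groups. Pdk4, the kinase known to respond to fasting, spread widely after DJB, at 8.09, 7.38 and 6.51, against 7.20, 7.51 and 7.72 in sham. Its sign turned without DJB 3, and the ratio of Pdk1 to Pdk4 overlapped between the groups (difference -0.14, exact permutation p = 0.8, adjusted p = 0.96).

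Among the 16 genes of pyruvate fate, limma called 0 and 9 had an unadjusted p under 0.05, against 14.3% of all genes. Of the 16, 9 were higher and 7 lower (median 0.11), and the groups did not overlap in 8, of which 7 were higher and 1 lower; over all genes the groups did not overlap in 21.1% (14.5% higher, 6.56% lower). Grouped by function after their values were seen, the 5 subunit genes of the pyruvate dehydrogenase complex all had higher means after DJB (0.21 to 0.48), 4 of them without overlap, as had the genes of both activating phosphatases, Pdp1 and Pdp2 (0.19 and 0.32). The 4 kinase genes had lower means (-0.37 to -0.15), and so had Mpc1 and Mpc2, the subunits of the mitochondrial pyruvate carrier (-0.19 and -0.32). None of these 13 genes passed in limma, 8 had an unadjusted p under 0.05, and a positive difference was seen in 61.7% of all genes tested.

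Pdhb, the beta subunit of the complex, had levels of 10.08, 10.25 and 9.88 after DJB, against 9.55, 9.74 and 9.47 in sham, a difference of 0.48 ± 0.12 (adjusted p = 0.138). Pdha1, its alpha subunit partner, had 10.50, 10.54 and 10.54 after DJB and 10.18, 10.25 and 10.09 in sham, a difference of 0.35 ± 0.09 (adjusted p = 0.143). In both genes all DJB arrays lay above all sham arrays. Slc16a1, a carrier of lactate, pyruvate and short-chain acids, had 9.77, 9.80 and 9.77 after DJB and 9.39, 9.30 and 9.25 in sham, a difference of 0.47 ± 0.09 (adjusted p = 0.0589) that passed without dim rows (0.0204) and with an intensity trend (0.0121). Pdha1 passed with the trend as well (0.0434).

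**Figure D4:**
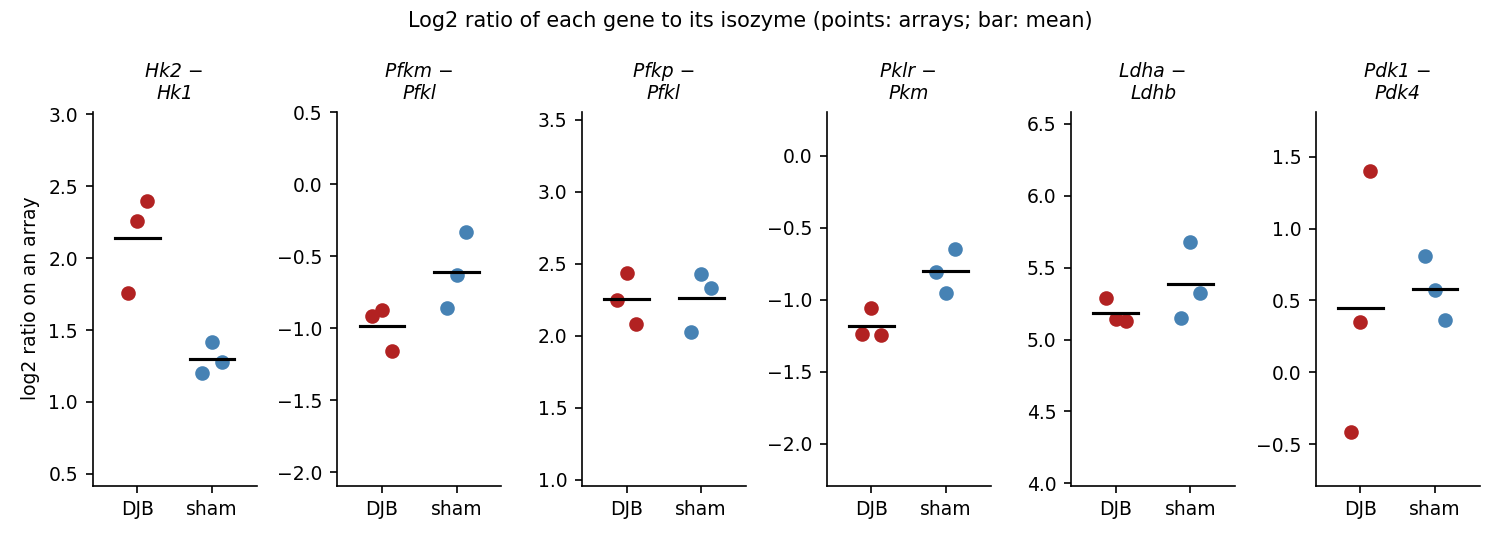
Log2 ratio of each gene to an isozyme on the same array (vertical axes, each spanning the same range), for 3 DJB arrays (left, red) and 3 sham arrays (right, blue), with group means as bars. The ratios of Hk2 to Hk1 (higher after DJB), Pfkm to Pfkl and Pklr to Pkm (both lower) do not overlap, and the other 3 do.

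The profile of Hk2 over the 6 arrays was set against all other named genes, each centred on its own mean, by the root mean square difference in log2 units. The 5 closest were B3galt5, a galactosyltransferase (0.0711), Lss, lanosterol synthase (0.0907), Acot7, an acyl-CoA thioesterase (0.0930), Hsd17b7, a cholesterol synthesis enzyme (0.0961), and Anp32e, a histone chaperone (0.107). Being like Hk2, all were higher on the DJB arrays, and those arrays ran highest on DJB 3 in each of them, as in Hk2. B3galt5 rose by 0.81 ± 0.11 (adjusted p = 0.0154), Lss by 0.89 ± 0.11 (0.00986) and Hsd17b7 by 0.90 ± 0.12 (0.0145), while Acot7 at 0.66 ± 0.14 (0.0861) and Anp32e at 0.73 ± 0.14 (0.0572) did not pass. The calls ended for B3galt5 without DJB 2, sham 1 or sham 3 (adjusted p up to 0.0837), for Hsd17b7 without DJB 2, sham 2 or sham 3 (up to 0.0740) and for Lss without sham 2 or sham 3 (up to 0.0566).

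**Figure D5:**
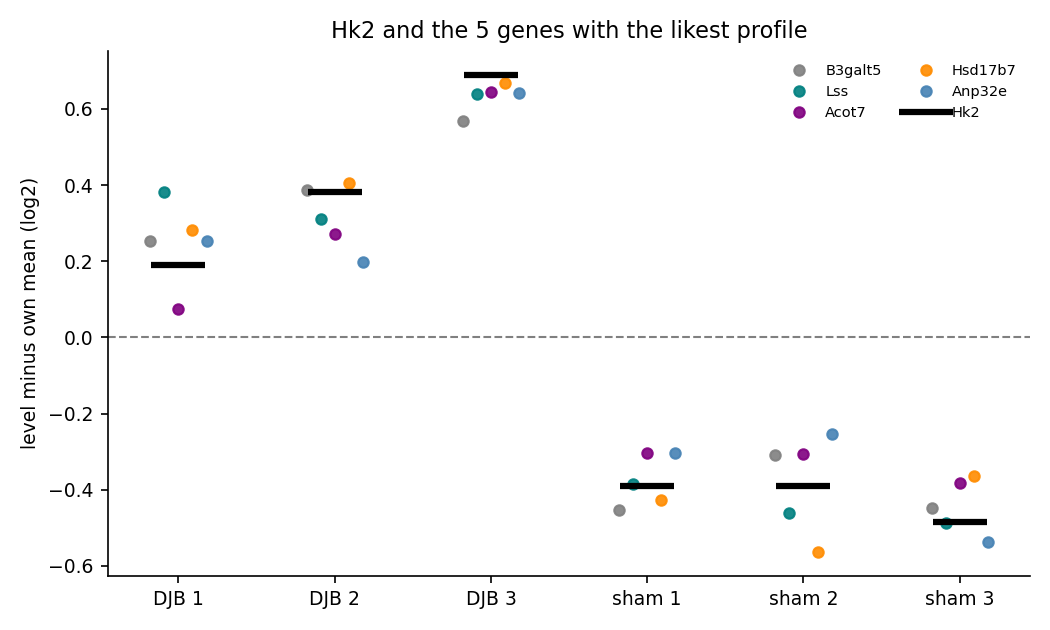
Level minus the gene's own mean (vertical axis, log2) on each of the 6 arrays for Hk2 (black bars) and the 5 genes with the smallest root mean square difference from it (coloured points, set side by side for legibility). On every array the points lie near the Hk2 bar, above 0 on the DJB arrays and below 0 on the sham arrays, which is what the selection asked for.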

How the data were processed

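RNA of 6 ilea was hybridised to Affymetrix whole-transcript arrays, 1 per rat. The deposited log2 expression values, 29214 rows by 6 arrays, were made by the authors with RMA (background correction, quantile normalisation, summary per row), per the submitters' processing notes, which give no version. Quantile normalisation hides changes shared by most genes, and dim rows understate folds. Values were used as deposited. Of the rows, 15310 carried 1 gene symbol in the platform annotation, 323 several and 13581 none; 15279 symbols were found in RefSeq (GRCr8, names only) and 0 replaced. The highest of several rows stood for a gene (527 genes), leaving 14506. For the genome build used upstream, the sources used here say nothing.

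Each gene was compared between the groups in R 4.3.3 with limma 3.58.1 (lmFit, eBayes, no covariate, no filter on dim rows, two-sided, Benjamini-Hochberg over all genes, threshold 0.05). Isozyme ratios were tested by exact permutation. Figures used matplotlib 3.10.9 in Python 3.11.15. The labels call the rats biological replicates and give no batch.

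The members and lists were chosen with earlier results of these data known. Genes named were all members, isozyme partners, called genes or otherwise the 3 of lowest p in each of 5 pathway lists, and the 5 likest Hk2. Slc2a5, Hk3, Sord, Akr1b1, Hbb, Fabp6, Ccnb1, Slc10a2, Nr1h4, Gzmb, Alas2, Epb42, Slc4a1 and the remaining pyruvate genes were named after their values were seen. Alternatives were the replicate block, repeated quantile normalisation, centred arrays, dim rows left out, an intensity trend, robust eBayes, mean of rows, every row tested, and each array left out. Replicate numbers are shared between the groups, and the labels state no pairing of the rats. Deviations of same-numbered arrays correlated at 0.0053, -0.12 and -0.15, and those of other arrays across the groups at -0.057 to 0.17. With 3 arrays a group, such correlations cannot settle whether the rats were paired.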

Additional observations from a re-analysis of the deposited data

How the results depend on the processing

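Signs of all members except Hk1 held under every alternative run; Hk1 was -0.026 after repeated quantile normalisation, -0.027 with centred arrays, and ran from -0.0718 to 0.0820 with an array left out. Against 112 genes called as reported (57 higher, 55 lower), the count was 50 with the replicate block (27 higher, 23 lower), 225 with dim rows left out (129 higher, 96 lower) and 295 with an intensity trend (166 higher, 129 lower); with an array left out, 33 to 108 were called (22 to 38 higher, 10 to 70 lower). Genes called were 126 with centred arrays (53 higher, 73 lower) and 119 with repeated quantile normalisation (51 higher, 68 lower). The members called, 1 in the fit as reported, were 0 with the replicate block, where Hk2 had adjusted p = 0.0933, and 0 when every row was tested. The block also ended the calls of Tkfc (adjusted p = 0.118) and B3galt5 (0.0555), which are no members. The members called were 2 (1 higher, Hk2, and 1 lower, Pklr) with repeated quantile normalisation, centred arrays, dim rows left out or an intensity trend, and 0 to 1 with an array left out. The fructose list had 1 fall as reported, 0 with the replicate block, 2 with the trend and 0 to 1 with an array left out, its median then between -0.28 and -0.18. The pyruvate list had 1 rise with dim rows left out and 2 with the trend, and a median of 0.0549 to 0.18 with an array left out. With an array left out, the ratio of Pfkp to Pfkl ran from -0.12 to 0.0815, that of Pdk1 to Pdk4 from -0.61 to 0.29, and Pdk4 itself from -0.53 to 0.25. Fewer arrays, or more or fewer rows in the adjustment, are part of these alternatives; otherwise the cause was not tested. The replicate block rests on a number that the labels do not describe as a pairing. Signal over background was not analysed here.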
